A study of Mus musculus with 491 samples.

Results

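The D-type cyclins and the genes that hold back the cyclin-dependent kinases were followed here through the single cells of the mouse ear region, from progenitors to young neurons, and against Top2a, a gene transcribed mainly in cells that replicate their DNA and divide. The genes were chosen by name, for their roles, and not by a cutoff on their values. They are the D cyclins Ccnd1, Ccnd2 and Ccnd3, the inhibitors Cdkn1a, Cdkn1b, Cdkn1c and Cdkn2d, the growth arrest genes Gadd45a and Gadd45g, and the antiproliferative gene Btg2, 10 of the 19494 genes of the deposited table that could be used. All 10 were found often enough to enter the tests. The table holds 491 cells sorted for tdTomato from otic vesicles and the tissue around them at E10.5. Every embryo carried Pax2-Cre and the Ai14-tdTomato reporter, each on 1 allele, and there is no group without them. The reporter marks cells that have had Cre from the Pax2-Cre transgene and all their descendants, so a red cell need not transcribe Pax2 when it is collected: the gene was detected in 14.4% of the otic epithelium-like class. By their titles, plates 1 to 3 make up replicate 1 (237 cells) and plates 4 to 6 replicate 2 (254 cells). No source used here says whether a replicate is an embryo, a litter or a day. The p-values measure only how differences between groups of cells vary over these 2 replicates. A shift common to all cells of a replicate is taken out, and the spread of a gene is pooled over the groups.

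D cyclins bind Cdk4 and Cdk6 in response to growth factors, and the pair phosphorylates the retinoblastoma proteins, which lets E2F factors switch on the genes of S phase. The Cip/Kip inhibitors Cdkn1a, Cdkn1b and Cdkn1c bind cyclin-kinase complexes of several kinds, whereas Cdkn2d belongs to the Ink4 family, which binds Cdk4 and Cdk6 themselves. Cdkn1b and Cdkn2d are known in mouse for keeping inner ear hair cells and neurons out of the cycle, Cdkn1c is an imprinted inhibitor transcribed in tissues that stop dividing, and Cdkn1a is a classic p53 target. Gadd45a and Gadd45g encode small stress and arrest proteins that in Xenopus act in neural precursors, and Btg2 marks the mouse neural progenitors whose next division makes a neuron.

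The promoters of Gadd45g, Btg2 and Gadd45a are shown because these are the members that were higher in both differentiating neuron-like and epibranchial neuron-like cells than in otic epithelium-like cells, as described below. The sequences are RefSeq windows of GRCm38.p6 that run from 250 bases before to 50 bases after the start, on the coding strand, and capitals mark the matches to the E-boxes CAGCTG or CAGATG (which proneural factors are known to bind), to the CCAAT box, to the TATAAA box and to TGACGTCA (a cyclic AMP response element). All were searched on both strands, and none overlaps another.
Gadd45g, chr13:51846425-51846724, plus strand: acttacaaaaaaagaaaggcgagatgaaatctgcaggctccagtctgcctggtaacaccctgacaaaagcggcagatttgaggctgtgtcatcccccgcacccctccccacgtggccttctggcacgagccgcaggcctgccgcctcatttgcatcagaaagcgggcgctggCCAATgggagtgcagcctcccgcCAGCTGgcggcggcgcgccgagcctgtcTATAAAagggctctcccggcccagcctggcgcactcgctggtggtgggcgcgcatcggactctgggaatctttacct
Btg2, chr1:134079106-134079405, minus strand: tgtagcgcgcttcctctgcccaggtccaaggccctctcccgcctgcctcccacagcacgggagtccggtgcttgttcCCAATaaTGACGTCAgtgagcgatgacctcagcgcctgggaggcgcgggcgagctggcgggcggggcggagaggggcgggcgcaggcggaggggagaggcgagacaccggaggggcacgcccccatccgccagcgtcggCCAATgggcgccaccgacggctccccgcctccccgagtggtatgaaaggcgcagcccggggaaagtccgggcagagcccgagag
Gadd45a, chr6:67037358-67037657, minus strand: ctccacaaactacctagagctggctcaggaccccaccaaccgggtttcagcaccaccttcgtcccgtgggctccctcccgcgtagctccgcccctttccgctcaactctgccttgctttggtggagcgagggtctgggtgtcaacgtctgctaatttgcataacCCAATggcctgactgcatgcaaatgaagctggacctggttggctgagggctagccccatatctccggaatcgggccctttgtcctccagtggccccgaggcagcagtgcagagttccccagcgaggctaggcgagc
The Gadd45g window held CCAAT at -78, CAGCTG at -55 and TATAAA at -27 relative to the start. The Btg2 window held CCAAT at -173 and -34 and TGACGTCA at -166, and the Gadd45a window held CCAAT at -86. Of all 32851 promoters of the same length, 16.3% held CAGCTG, 17.2% CAGATG, 37.4% CCAAT, 13.6% TATAAA and 1.8% TGACGTCA. RefSeq windows were matched for 7 of the 10 genes, and Ccnd1, Ccnd2 and Cdkn1c had no entry in the table. A match is a description of these letters and not a measured site.

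Cells were grouped by marker genes, none of which is a cyclin, an inhibitor or a cell cycle gene. Otic epithelium-like cells (146) had Epcam in 95.9% and Oc90 in 55.5% of cells, and early neuroblast-like cells (42) had the proneural genes Neurod1 in 85.7% and Neurog1 in 33.3%. The latter had Eya2 in 83.3%, Insm1 in 76.2%, Nhlh1 in 31.0% and Neurod4 and Sstr2 in 9.5% each, but Stmn2 in only 26.2%. Of the values of these early neuroblast markers 46.9% were found in the class. In differentiating neuron-like, epibranchial neuron-like and cluster 8 cells it was 59.2%, 63.0% and 48.0%, so the list alone does not set the class apart. Differentiating neuron-like cells (49) all had Neurod1, Stmn2 and Pou4f1, and epibranchial neuron-like cells (34) had Tlx3 in 76.5%. Neural tube progenitor-like cells (121) had Fabp7 in 96.7%, surface ectoderm-like cells (41) Trp63 in 95.1% and mesenchyme-like cells (23) Twist1 in 87.0%. Cluster 8 (28 cells) is kept under its number, because it had Tubb3 in every cell and Stmn2 in 92.9% but markers of both epibranchial neurons (35.7% of their values found) and neural tube progenitors (22.3%). The 7 cells with neural crest or glial precursor markers were left untested, being too few. "Found" means an FPKM of at least 1 and FPKM, fragments scaled to transcript length and library size, is a level per length, so levels of different genes can be set side by side.

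Some libraries stand apart from their labels. Early neuroblast-like cells include 7 cells with endothelial (3) or macrophage (4) markers, and the tests on that class were repeated without them. Levels of the class are those of all 42 cells unless the other 35 are named. Of the values of the endothelium markers 9.9% were found in early neuroblast-like cells, against 5.3% in otic epithelium-like cells, and of those of the macrophage markers 9.9%, against 0.0%. The part of these cells in the results was tested only by leaving them out. Values also seem to have been carried between wells: 18 pairs of plate rows were linked, 16 of them neighbours on a plate. Rows were linked where wells of the same column shared genes found in under 3% of cells more often than expected, in both replicates. The row with the lower levels of these genes was taken as the receiver. Receiving wells held a median of 3.7% to 14.6% of the level in their source. Transfer and its direction are inferred from these values and were not tested otherwise. Of all cells, 173 had no such source well, among them 14 early neuroblast-like, 15 differentiating neuron-like and 56 otic epithelium-like cells. Genes found per cell ranged from 2552 to 6403 (median 4513), and depth in reads is unknown.

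Ccnd1 (chr7:144929931-144939925, minus strand, mm10), the D cyclin best known as a growth factor target, stood highest in early neuroblast-like cells. It ranged from 0 to 486 FPKM there with a median of 187, and it was found in 88.1% of them (95% exact binomial interval 74.4 to 96.0). Otic epithelium-like cells had 0 to 275 FPKM with a median of 52.0, and differentiating neuron-like cells 0 to 200 FPKM with a median of 27.8. The ranges over single cells overlap widely, and the medians of the remaining classes were 16.7 FPKM in neural tube progenitor-like, 11.8 in mesenchyme-like, 1.98 in surface ectoderm-like, 1.32 in cluster 8 and 0.6 in epibranchial neuron-like cells. By the mean of log2(FPKM + 1), the order was early neuroblast-like, otic epithelium-like, differentiating neuron-like, neural tube progenitor-like, mesenchyme-like, surface ectoderm-like, epibranchial neuron-like, cluster 8. The replicate means overlapped between differentiating neuron-like and neural tube progenitor-like cells, and among the last 3.

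Ccnd2 (chr6:127125162-127152193, minus strand) had another order and stood highest outside the neuronal classes. Its median was 86.3 FPKM in mesenchyme-like, 72.8 in surface ectoderm-like, 71.8 in neural tube progenitor-like and 50.2 in otic epithelium-like cells, each of which had it in over 9 cells of 10. In early neuroblast-like cells the median was 12 FPKM and 61.9% of cells had it, or 25.9 FPKM and 68.6% without the 7 endothelial and macrophage cells. Among neurons it was found in 36.7% of differentiating neuron-like, 55.9% of epibranchial neuron-like and 57.1% of cluster 8 cells, with medians of 0, 3.89 and 2.49 FPKM. Differentiating neuron-like cells had the lowest mean of all classes in both replicates, 1.28 and 1.49 on the log2(FPKM + 1) scale.

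Ccnd3 (chr17:47505051-47599691, plus strand) was the broadest of the D cyclins, with medians of 119 FPKM in surface ectoderm-like, 118 in mesenchyme-like, 94.2 in neural tube progenitor-like, 72.5 in otic epithelium-like and 55.9 in early neuroblast-like cells. The neuronal classes were lower, at 27.6 FPKM in epibranchial neuron-like, 14.2 in differentiating neuron-like and 0.45 in cluster 8 cells. The replicate means of neural tube progenitor-like cells overlapped with those of otic epithelium-like and of early neuroblast-like cells.

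**Figure D1:**
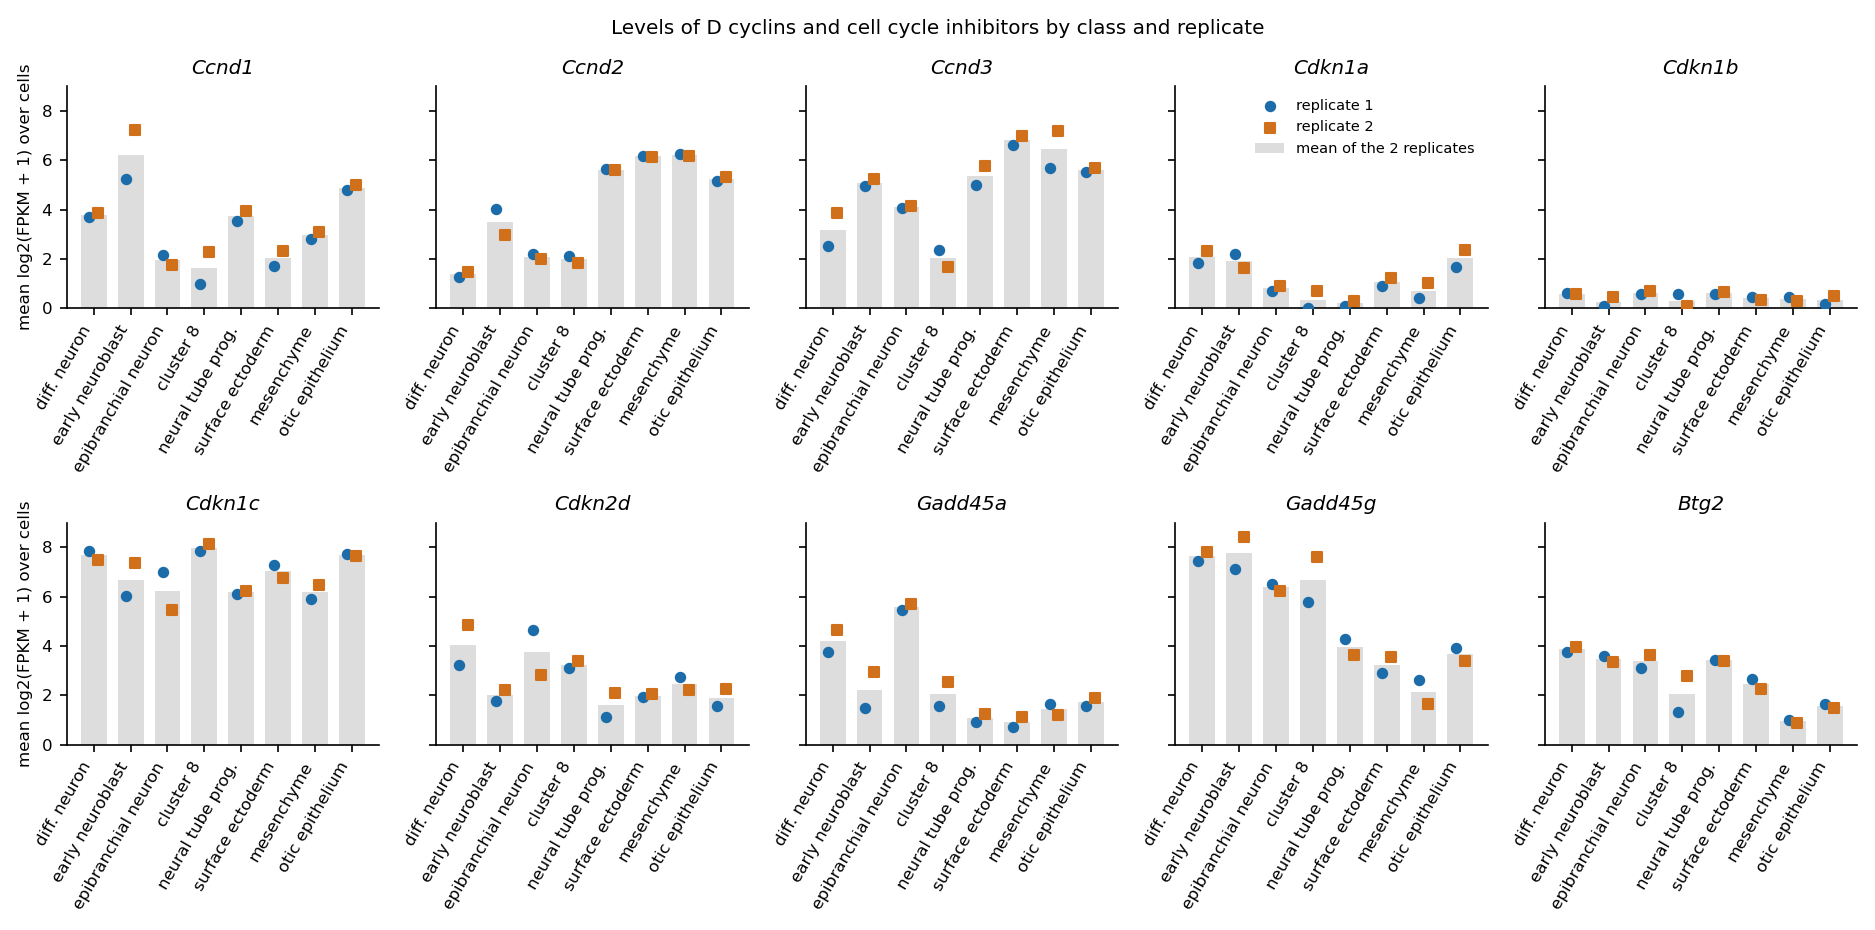
Mean log2(FPKM + 1) over cells (vertical axis) of each of the 10 genes in 8 cell classes. Bars are the mean of the 2 replicates and points the replicates: Ccnd1 is highest in early neuroblast-like cells (5.23 and 7.21), Ccnd2 is lowest in differentiating neuron-like cells (1.28 and 1.49), and Gadd45g is at 5.78 or above in the 4 neuronal and neuroblast classes.

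The makeup of the D cyclin pool therefore differed between classes, as the plot of D cyclin shares shows. Of the summed FPKM of the 3 genes, Ccnd1 made up 59.2% in early neuroblast-like cells (50.2% and 64.0% in the replicates) and 57.9% in differentiating neuron-like cells (64.5% and 54.5%), against 27.0% in otic epithelium-like cells (28.1% and 26%). In neural tube progenitor-like cells it made up 17.2%, in mesenchyme-like cells 6.9% and in surface ectoderm-like cells 3.3%, where Ccnd3 led with 46.0%, 51.9% and 60.1%. The large Ccnd1 share was not common to all neuronal classes. In epibranchial neuron-like cells it was 20.9% (22.7% and 18.8%), with Ccnd3 at 60.2%, and in cluster 8 it was 25.4% (5.3% and 48.7%). The Ccnd1 shares of early neuroblast-like and differentiating neuron-like cells did not overlap between replicates with those of otic epithelium-like cells. The pool itself was small in neurons: the median sum was 54.5 FPKM in differentiating neuron-like, 42.6 in epibranchial neuron-like and 18.1 in cluster 8 cells, against 280 in early neuroblast-like, 214 in neural tube progenitor-like and 192 in otic epithelium-like cells. Ccnd1 was the highest of the 3 in 26 of 42 early neuroblast-like cells and in 23 of 49 differentiating neuron-like cells, against 48 of 146 otic epithelium-like cells. All 3 were found together in 28.6% of differentiating neuron-like and 50% of early neuroblast-like cells, against 76.0% of otic epithelium-like cells.

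**Figure D2:**
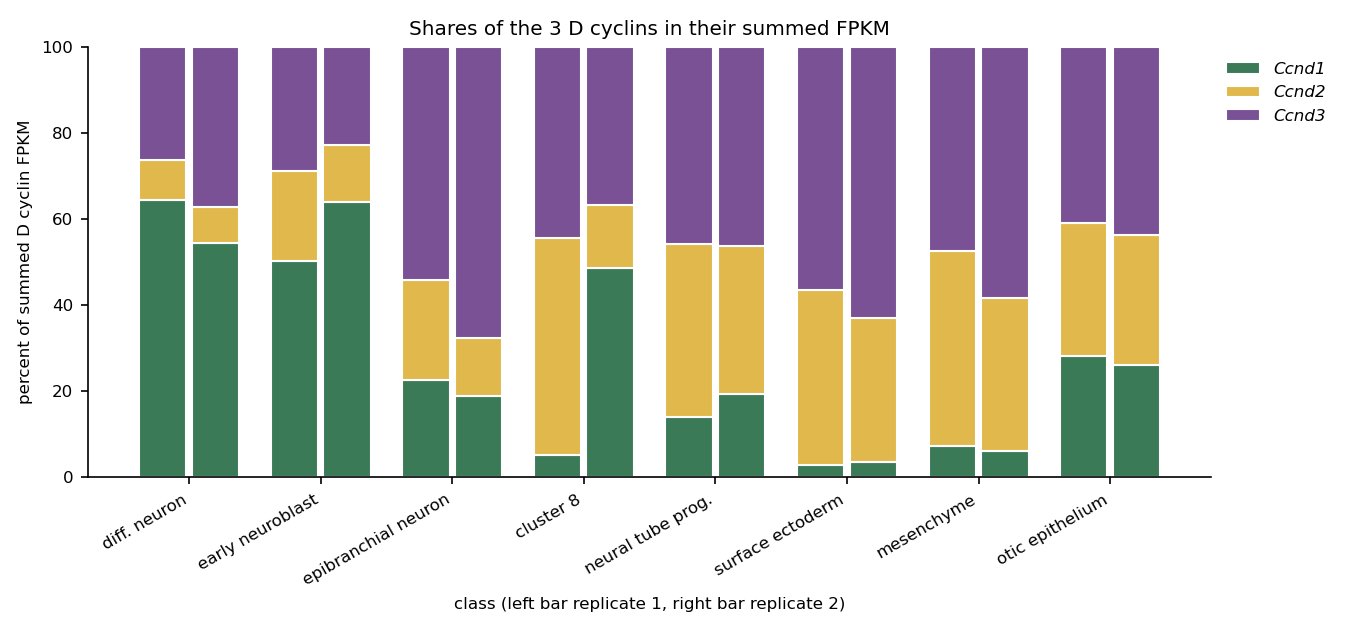
Percent of the summed D cyclin FPKM (vertical axis) that is Ccnd1, Ccnd2 and Ccnd3 in each cell class, with a stacked bar for each replicate. Ccnd1 takes 64.5% and 54.5% in differentiating neuron-like and 50.2% and 64.0% in early neuroblast-like cells, against 28.1% and 26% in otic epithelium-like cells. It takes 22.7% and 18.8% in epibranchial neuron-like cells and 5.3% and 48.7% in cluster 8.

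Of the inhibitors, Cdkn1c (chr7:143458339-143461050, minus strand) was by far the most abundant, and it was found in 92.9% to 100% of cells in every tested class, cycling or not. Its median was 285 FPKM in cluster 8, 229 in otic epithelium-like, 217 in differentiating neuron-like, 204 in surface ectoderm-like, 168 in early neuroblast-like, 132 in epibranchial neuron-like, 88.0 in mesenchyme-like and 73.4 in neural tube progenitor-like cells. The replicate means of cluster 8 (7.83 and 8.13 on the log2(FPKM + 1) scale) lay above those of otic epithelium-like cells (7.74 and 7.63), those of differentiating neuron-like cells (7.84 and 7.49) overlapped with both, and every class below these overlapped with the next.

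Cdkn1a (chr17:29090976-29100727, plus strand) was found in 49.0% of differentiating neuron-like, 35.7% of early neuroblast-like and 45.9% of otic epithelium-like cells, which overlapped in level. It was found in 24.4% of surface ectoderm-like, 20.6% of epibranchial neuron-like, 17.4% of mesenchyme-like, 10.7% of cluster 8 and 6.6% of neural tube progenitor-like cells. The last share is the smallest of any member in any tested class.

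Cdkn1b (chr6:134920401-134925513, plus strand), the inhibitor best known in the inner ear, was seldom found at this stage. Its share lay between 9.5% of early neuroblast-like and 26.5% of epibranchial neuron-like cells, with 24.5% of differentiating neuron-like cells and 11% of otic epithelium-like cells. Its protein is known to be controlled largely by degradation, which RNA does not show.

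Cdkn2d (chr9:21288410-21291407, minus strand) had its highest means in the 3 neuronal classes. Its median was 41.8 FPKM in differentiating neuron-like cells (found in 75.5%), 40.2 FPKM in epibranchial neuron-like cells (67.6%) and 15 FPKM in cluster 8 (53.6%). In otic epithelium-like cells the median was 0, with 41.1% of cells found, and in neural tube progenitor-like cells 34.7% of cells had it. The replicate means of the 3 neuronal classes overlapped with one another and lay above those of all other classes (2.84 and above, against 2.73 and below). By limma, as described below, Cdkn2d was called higher in differentiating neuron-like than in otic epithelium-like cells. It was not called in epibranchial neuron-like against otic epithelium-like cells, nor in cluster 8 against neural tube progenitor-like cells (difference 1.65, adjusted p = 0.0966).

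Gadd45g (chr13:51846678-51848468, plus strand) was the member with the strongest neuronal pattern. The median was 535 FPKM in early neuroblast-like cells (range 0 to 2281), 388 in differentiating neuron-like cells (0 to 1692), 205 in cluster 8 (0 to 2932) and 170 in epibranchial neuron-like cells (0 to 2111). Otic epithelium-like cells had a median of 21.8 FPKM (0 to 612) and neural tube progenitor-like cells one of 26 (0 to 3480), and the single highest cell belonged to the progenitors. Each of these 4 classes overlapped with the next in replicate means, and none with the other 4 tested classes.

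Gadd45a (chr6:67035096-67037457, minus strand) was highest in epibranchial neuron-like cells, with 52.5 FPKM (found in 94.1%), then in differentiating neuron-like cells with 30.1 FPKM (81.6%), and neither overlapped with its neighbours in the order. Early neuroblast-like cells had a median of 0.759 FPKM (50%), or 3.48 FPKM (57.1%) without the 7 endothelial and macrophage cells, and the other classes had it in 26.8% to 45.2% of cells. The 2 Gadd45 genes thus parted in the neuroblasts, where Gadd45g was at its highest level and Gadd45a did not pass the test against the epithelium. Btg2 (chr1:134075170-134079120, minus strand) had medians of 19.8 FPKM in differentiating neuron-like, 15.2 in epibranchial neuron-like, 8.72 in early neuroblast-like and 15.5 in neural tube progenitor-like cells. Without the 7 endothelial and macrophage cells, whose median was 2.01 FPKM, the Btg2 median of early neuroblast-like cells was 17.9 FPKM. It had 0.424 FPKM in otic epithelium-like and 0 in mesenchyme-like cells. Annotated genes on the opposite strand overlap Gadd45a, Cdkn1a, Cdkn1c and all 3 D cyclins, those over Ccnd1 (LTO1) and Ccnd3 (Bysl) being protein-coding, and since no source used here says whether counting used strand, reads of such pairs cannot be told apart.

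The first comparison sets neuroblasts beside the otic epithelium, from which neuroblasts of the inner ear ganglion are known to arise. That the early neuroblast-like cells came from it was not tested, and Pax2 was found in 7.1% and Pax8 in 9.5% of them, against 14.4% and 32.9% of otic epithelium-like cells. Of the 10 genes, 3 differed in early neuroblast-like against otic epithelium-like cells by limma with Benjamini-Hochberg adjustment over 10189 genes, of which 2.67% were called: Gadd45g and Btg2 were higher and Ccnd2 was lower. Gadd45g averaged 7.12 and 8.41 in the replicates of early neuroblast-like cells, against 3.94 and 3.41 in otic epithelium-like cells, on the log2(FPKM + 1) scale. The groups did not overlap, and the difference was 4.09 (SE 0.55, adjusted p = 0.000244). Btg2 averaged 3.58 and 3.35 in early neuroblast-like cells, against 1.66 and 1.49 in otic epithelium-like cells, again without overlap (difference 1.89, SE 0.48, adjusted p = 0.0397). Ccnd2 averaged 4.02 and 2.98 in early neuroblast-like cells, against 5.17 and 5.3 in otic epithelium-like cells, and was lower by -1.73 (SE 0.41, adjusted p = 0.0256). Gadd45g was called in all 13 alternative settings (adjusted p 1.81e-06 to 0.02), and its difference was 5.80 in the cells without a source well.

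The 2 other calls were less firm. Without the 7 endothelial and macrophage cells, Ccnd2 differed by -1.34 (adjusted p = 0.0933), and with the log2 of the mean FPKM in place of the mean of log2 values by -0.33 (adjusted p = 0.946; range over 13 alternatives 0.00238 to 0.946). Among cells that lack a source well it differed by -3.91. Btg2 lost its call in 4 of 13 alternatives, with adjusted p from 0.00431 to 0.171 and a difference of 1.93 without the 7 cells.

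Ccnd1 did not pass in all early neuroblast-like cells: 5.23 and 7.21 in the replicates, against 4.78 and 5.00 in otic epithelium-like cells, a difference of 1.33 (SE 0.51, adjusted p = 0.269). The replicates differed in size, at 0.45 and 2.21. Without the 7 endothelial and macrophage cells, which had a median of 13.2 FPKM of Ccnd1, the remaining 35 cells had 218 FPKM and the difference was 1.89 (adjusted p = 0.0309, range over 13 alternatives 0.0309 to 0.629). The same 7 cells had a median of 57.7 FPKM of Gadd45g, against 604 FPKM in the other 35. Cdkn1c had a difference of -0.99 (adjusted p = 0.382), and the remaining members differed by 0.51 or less. Of the 7 pathway lists (partners of cyclins and kinases, pocket proteins and E2F, other inhibitors, p53 targets, G2/M, S phase, and growth factor-linked regulators), no gene was called in this comparison.

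**Figure D3:**
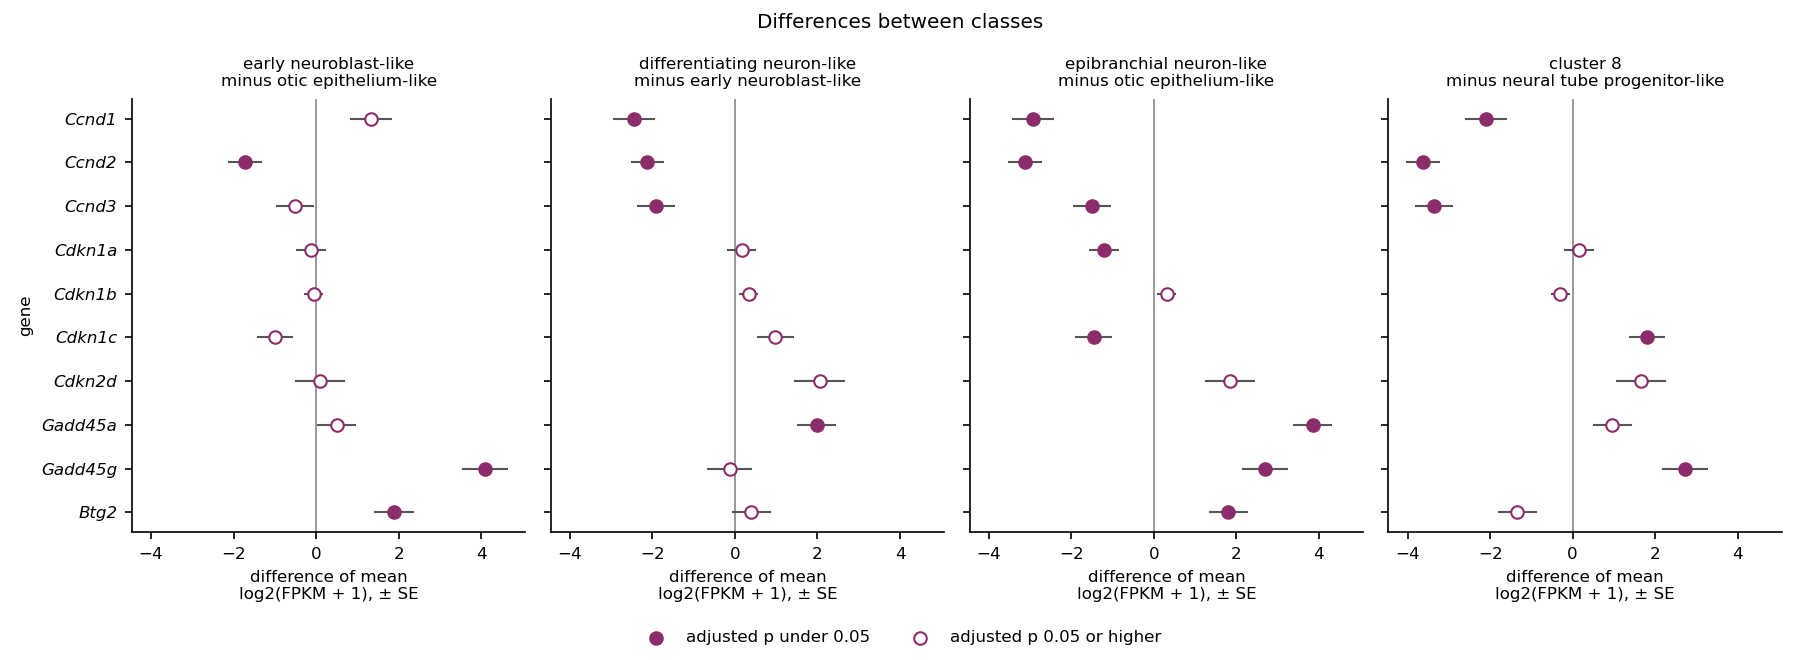
Differences of mean log2(FPKM + 1) (horizontal axis) with their SE for the 10 genes in 4 comparisons of classes, filled where the adjusted p is below 0.05. Gadd45g is higher by 4.09 in early neuroblast-like than in otic epithelium-like cells, the 3 D cyclins are lower in differentiating neuron-like than in early neuroblast-like cells (-1.91 to -2.45), and Gadd45a is higher by 3.85 in epibranchial neuron-like than in otic epithelium-like cells.

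All 3 D cyclins differed between differentiating neurons and neuroblasts. Each fell in differentiating neuron-like against early neuroblast-like cells and Gadd45a rose, 4 of 10 genes where 4.85% of all genes tested were called. Ccnd1 averaged 3.68 and 3.85 in differentiating neuron-like cells, against 5.23 and 7.21 in early neuroblast-like cells, without overlap (difference -2.45, SE 0.51, adjusted p = 0.00768). Ccnd2 averaged 1.28 and 1.49 in differentiating neuron-like cells, against 4.02 and 2.98 in early neuroblast-like cells (difference -2.12, SE 0.41, adjusted p = 0.00453). Ccnd3 averaged 2.51 and 3.85 in differentiating neuron-like cells, against 4.94 and 5.22 in early neuroblast-like cells (difference -1.91, SE 0.46, adjusted p = 0.0212). Every replicate of the neurons lay below both replicates of the neuroblasts for each of these genes.

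Gadd45a averaged 3.76 and 4.66 in differentiating neuron-like cells, against 1.5 and 2.97 in early neuroblast-like cells, and rose by 1.98 (SE 0.47, adjusted p = 0.0187). Cdkn2d showed 3.25 and 4.86 in differentiating neuron-like cells, against 1.79 and 2.23 in early neuroblast-like cells, a difference of 2.05 that missed the threshold (SE 0.61, adjusted p = 0.0643) and passed it in 4 of 13 alternatives (range 0.0248 to 0.657), among them without the 7 cells (2.25, adjusted p = 0.0414). Gadd45g and Btg2, already high in the neuroblasts, differed by -0.13 (adjusted p = 0.942) and 0.40 (adjusted p = 0.734). Among cells that lack a source well, no call of the 4 held, with Ccnd2 at -0.56 (adjusted p = 0.782; range 0.00121 to 0.782), Ccnd1 at -2.22, Ccnd3 at -3.31 and Gadd45a at 2.84, and with the log2 of the mean FPKM Ccnd1 (-1.83) and Gadd45a (1.27) missed the threshold. Ccnd3 also lost its call without the 7 endothelial and macrophage cells (-1.62, adjusted p = 0.0539, range 0.00613 to 0.0856).

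Beside the D cyclins, 16 of the 24 genes of the S phase list fell in this step (median difference -1.99, against -0.04 over all genes), with Mcm3, a subunit of the replicative helicase, at -3.08, Rrm2, which makes deoxynucleotides, at -2.82, and the origin licensing factor Cdt1 at -2.74. The E-type cyclin gene Ccne1, whose product acts after the D cyclins, fell by 2.58 on the log2 scale (SE 0.48, adjusted p = 0.00357). Of the 23 genes of the G2/M list, 2 fell, Mki67 by 1.87 and Birc5 by 1.61. Plk2, a p53 target, rose by 3.72 (adjusted p = 0.000233) and was the only one of 12 genes of that list to change. Top2a itself was found in 57.1% of differentiating neuron-like and 73.8% of early neuroblast-like cells.

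In differentiating neuron-like against otic epithelium-like cells, 6 of 10 genes were called, where 11.8% of all genes were. Ccnd2 was lower by -3.85 (SE 0.41, adjusted p = 4.27e-06) and Ccnd3 by -2.42 (SE 0.46, adjusted p = 0.00156). Gadd45g was higher by 3.97 (SE 0.55, adjusted p = 6.61e-05), Gadd45a by 2.48 (SE 0.47, adjusted p = 0.00145), Btg2 by 2.29 (SE 0.48, adjusted p = 0.00319) and Cdkn2d by 2.14 (SE 0.61, adjusted p = 0.0279). For all 6, both replicates of the neurons lay on the same side of both replicates of the epithelium. Ccnd1 had 3.68 and 3.85 in differentiating neuron-like cells, against 4.78 and 5.0 in otic epithelium-like cells, a difference of -1.12 that did not pass (adjusted p = 0.194). Cdkn1c had 7.84 and 7.49 in differentiating neuron-like cells, against 7.74 and 7.63 in otic epithelium-like cells, a difference of -0.02 (SE 0.44, adjusted p = 0.989).

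Among the lists, 13 of 24 S phase genes and 2 of 23 G2/M genes were lower in differentiating neuron-like cells than in otic epithelium-like cells, and so were 5 of 10 growth factor-linked regulators, among them Yap1 (-2.51), Dusp6 (-1.89), Spry1 (-1.81) and Etv5 (-1.30). Yap1 is the coactivator of the Hippo pathway, and the other 3 are known targets of FGF and ERK signalling. Rb1, a pocket protein that D cyclin kinases phosphorylate, was higher by 1.65. Ccnd2 and Gadd45g were called in all 12 alternatives. Ccnd3, Gadd45a, Btg2 and Cdkn2d lost their calls in the cells without a source well, where their differences were -1.94, 2.5, 1.95 and 2.55, Btg2 also by the log2 of mean FPKM (1.47) and Cdkn2d also with the 30% correction for transfer (1.95) and with no gene filter.

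A finer view came from splitting the early neuroblast-like and differentiating neuron-like cells by Neurog1, the factor that starts neurogenesis, and Stmn2, a neuronal microtubule regulator. Both are among the markers that made the classes, and the groups are small, so the values are a description. In the order Neurog1 without Stmn2 (12 cells), neither (19), both (8) and Stmn2 without Neurog1 (52), the median of Ccnd1 was 266, 131, 56.7 and 24.6 FPKM. Without the endothelial and macrophage cells it was 257, 244, 56.7 and 24.7 FPKM. Ccnd2 had medians of 21.2, 5.76, 0 and 0.56 FPKM, and Ccnd3 28.2, 60.3, 46.3 and 20.9 FPKM, so of the D cyclins only Ccnd1 had a lower median at each step. Its means of log2 values in replicate 1 were 3.9 and 3.94 in the last 2 groups, the higher in the last.

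Cdkn2d had the other order, found in 33.3%, 52.6%, 62.5% and 75.0% of cells, while Gadd45g had medians of 573, 509, 489 and 339 FPKM. Btg2 had 35.7 FPKM in the Neurog1 cells without Stmn2, against 9.24, 17.5 and 14.5 FPKM in the next 3 groups. Without the endothelial and macrophage cells the order of Gadd45g changed, with medians of 605, 703, 489 and 337 FPKM, and Btg2 had 35.9, 18.1, 17.5 and 17.9 FPKM. Top2a was found in 83.3%, 84.2%, 87.5% and 50% of cells, so over both replicates its share was lower only in the last group. In replicate 1, however, the mean log2(FPKM + 1) of Top2a was 2.28 in the 3 cells with both, against 3.14 in the last group. The first group holds 2 cells of replicate 1 and 10 of replicate 2.

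**Figure D4:**
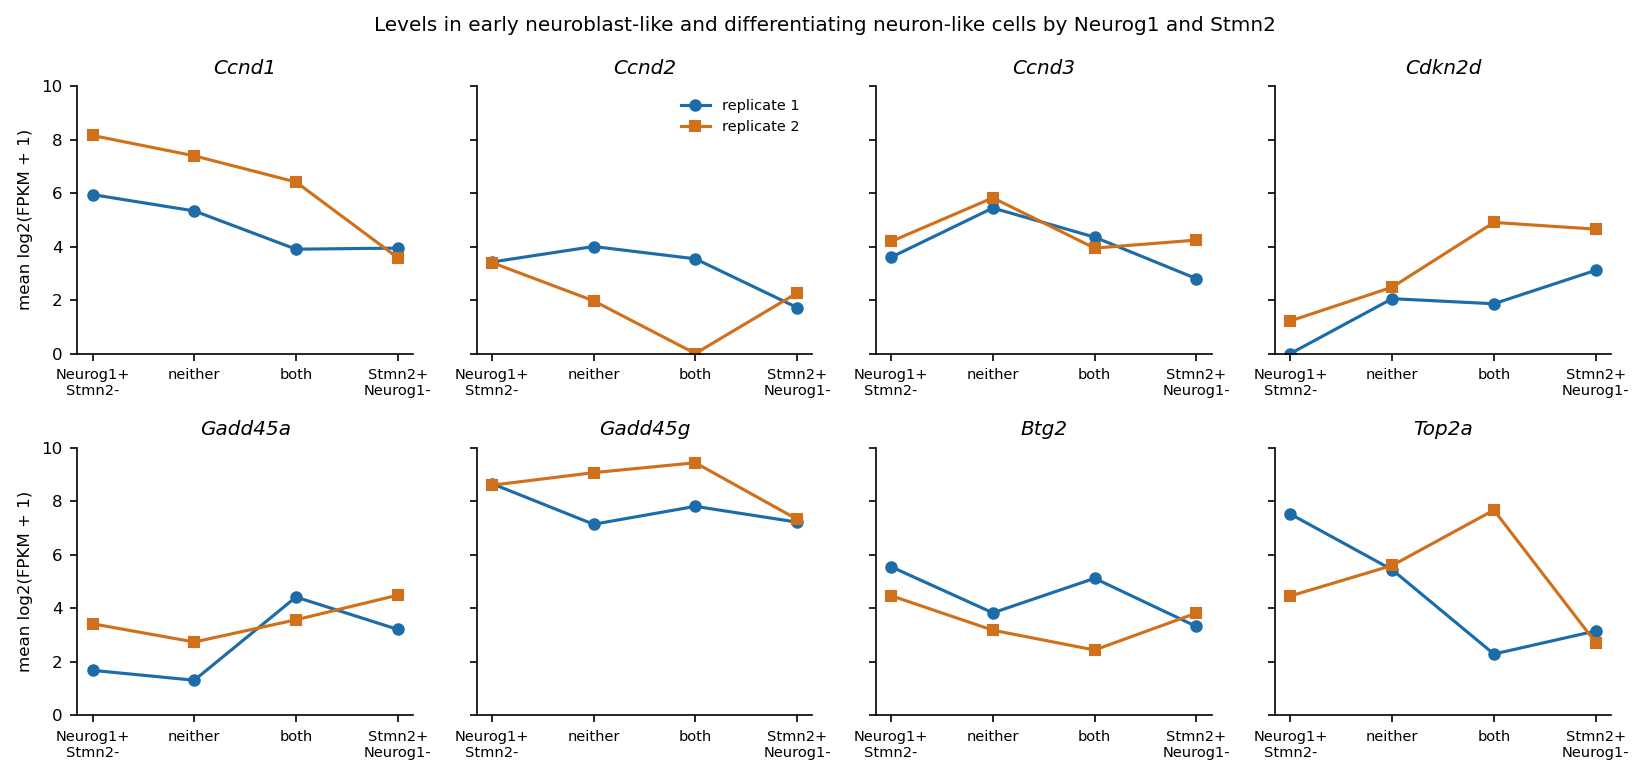
Mean log2(FPKM + 1) (vertical axis) of 7 members and of Top2a in early neuroblast-like and differentiating neuron-like cells, grouped by whether Neurog1 and Stmn2 were found, with a line for each replicate. Along the groups Ccnd1 is at 5.94, 5.33, 3.9 and 3.94 in replicate 1 and at 8.15, 7.39, 6.41 and 3.58 in replicate 2.

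A second set of young neurons, cluster 8, was compared with the neural tube progenitor-like cells. All 3 D cyclins were lower in cluster 8, 3 of 10 genes where 6.26% of all genes were called lower, and Cdkn1c and Gadd45g were higher, 2 of 10 where 4.81% of all genes were called higher. Ccnd2 averaged 2.14 and 1.84 in cluster 8, against 5.63 and 5.59 in neural tube progenitor-like cells (difference -3.62, SE 0.41, adjusted p = 1.65e-05). Ccnd3 averaged 2.37 and 1.67 in cluster 8, against 5.00 and 5.75 in neural tube progenitor-like cells (difference -3.35, SE 0.46, adjusted p = 0.000118). Ccnd1 averaged 1.0 and 2.27 in cluster 8, against 3.55 and 3.93 in neural tube progenitor-like cells (difference -2.11, SE 0.51, adjusted p = 0.0107). None of the 3 overlapped, and all 3 were called in each of 10 alternatives.

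Cdkn1c averaged 7.83 and 8.13 in cluster 8, against 6.12 and 6.24 in neural tube progenitor-like cells, higher by 1.80 (SE 0.44, adjusted p = 0.0111), a call held in 8 of 10 alternatives (adjusted p 0.00264 to 0.0789). Gadd45g averaged 5.78 and 7.59 in cluster 8, against 4.3 and 3.63 in neural tube progenitor-like cells, higher by 2.72 (SE 0.55, adjusted p = 0.00305), or by 0.85 with the log2 of the mean FPKM (adjusted p = 0.118, range over 10 alternatives 0.000825 to 0.118). Btg2 had 1.35 and 2.80 in cluster 8, against 3.45 and 3.38 in neural tube progenitor-like cells, a difference of -1.34 that did not pass (adjusted p = 0.0827). Of the lists, 22 of 24 S phase and 22 of 23 G2/M genes fell, with Top2a at -4.06, Ccnb1 at -4.03, Rrm2 at -4.21 and Mcm3 at -3.91, and 4 of 8 partners of cyclins and kinases, with Ccna2 at -3.36, Cks1b at -2.34, Cdk2 at -2.22 and Ccne1 at -1.54. Too few cells had no source well for this comparison to be fitted in them.

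The 2 progenitor-to-neuron comparisons were set against each other as the difference of the steps, differentiating neuron-like minus otic epithelium-like against cluster 8 minus neural tube progenitor-like. Of the 10 genes only Btg2 was called, where 3.41% of all genes were. Its step was 2.29 against otic epithelium and -1.34 against neural tube progenitors, a difference of 3.63 (SE 0.67, adjusted p = 0.00386) that was 4.19 and 3.08 in the replicates. Btg2 was found in 75.2% of neural tube progenitor-like cells, against 43.8% of otic epithelium-like cells. With the log2 of the mean FPKM the difference was 2.45 (adjusted p = 0.123, range over 10 alternatives 0.000314 to 0.123). The corresponding values were -1.82 for Cdkn1c (adjusted p = 0.134), 1.52 for Gadd45a (adjusted p = 0.277), 1.24 for Gadd45g (adjusted p = 0.512) and -0.23 for Ccnd2 (adjusted p = 0.916).

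Epibranchial neuron-like cells, the sensory neurons of the neighbouring ganglia, differed from otic epithelium-like cells in 8 of 10 genes: 5 were lower, where 5.91% of all genes were called lower, and 3 were higher, where 5.15% were called higher. Ccnd1 was lower by -2.92 (SE 0.51, adjusted p = 0.000853), Ccnd2 by -3.13 (SE 0.41, adjusted p = 4.76e-05) and Ccnd3 by -1.49 (SE 0.46, adjusted p = 0.0454). Gadd45a was higher by 3.85 (SE 0.47, adjusted p = 2.19e-05), the largest difference of this gene in any comparison of classes here, with 5.47 and 5.70 in epibranchial neuron-like cells, against 1.57 and 1.90 in otic epithelium-like cells. Gadd45g was higher by 2.70 (adjusted p = 0.00318) and Btg2 by 1.81 (adjusted p = 0.0191). The Cip/Kip genes Cdkn1a and Cdkn1c were lower, Cdkn1a by -1.21 (adjusted p = 0.0363) and Cdkn1c by -1.46 (adjusted p = 0.039). Ccnd3, Cdkn1a and Cdkn1c each lost their call in 4 or 5 of 11 alternatives, Btg2 in 3 (0.85 by the log2 of mean FPKM), while Ccnd1 and Gadd45g lost theirs only among cells that lack a source well. Without the replicate in the model Ccnd3 had an adjusted p of 0.0717 (range 0.0123 to 0.784) and Cdkn1a one of 0.0523 (range 0.0138 to 0.668). Cluster 8 against otic epithelium-like cells gave 5 of 10 genes, where 23.4% of all genes were called, with all 3 D cyclins (-3.24 to -3.58) and Cdkn1a (-1.67) lower and Gadd45g higher (3.01).

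Among the classes that are not neuronal, 2 of 10 genes were called between neural tube progenitor-like and otic epithelium-like cells, where 5.56% of all genes were. Cdkn1a averaged 0.11 and 0.28 in neural tube progenitor-like cells, against 1.67 and 2.38 in otic epithelium-like cells (difference -1.83, SE 0.36, adjusted p = 0.00397), a call lost in 1 of 12 alternatives, the cells without a source well (-1.69, adjusted p = 0.451, range 3.46e-06 to 0.451). Btg2 averaged 3.45 and 3.38 in neural tube progenitor-like cells, against 1.66 and 1.49 in otic epithelium-like cells (difference 1.84, SE 0.48, adjusted p = 0.0283), a call lost in 3 of 12 alternatives. Cdkn1c missed the threshold at -1.5 (adjusted p = 0.0536) and passed it in 7 of 12 alternatives. In surface ectoderm-like against otic epithelium-like cells, 1 of 10 genes was called, where 3.38% of all genes were: Ccnd1 was lower by -2.86 (adjusted p = 0.00237), and by -2.12 in the cells without a source well, where the call was lost. In mesenchyme-like against otic epithelium-like cells, 2 of 10 were, where 5.24% of all genes were: Ccnd1 lower by -1.92 (adjusted p = 0.0347) and Cdkn1a by -1.30 (adjusted p = 0.0424). Both of these were lost without the replicate in the model, with adjusted p of 0.0567 (range over 11 alternatives 0.0214 to 0.0937) and 0.0604 (0.0226 to 0.131). Mesenchyme-like cells had Top2a in every cell and 8 G2/M genes above otic epithelium-like cells, so the class with the most widely found Top2a had a low Ccnd1 and a high Ccnd2.

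The relation to Top2a was then followed within classes, by comparing cells in which Top2a was found with cells in which it was not, over the 6 classes that have enough of both. Of the 10 genes, 3 were called where 5.32% of all genes were: Ccnd1 was higher in Top2a-found cells by 1.24 (SE 0.36, adjusted p = 0.0425), Cdkn1b was higher by 0.45 (SE 0.13, adjusted p = 0.0337) and Cdkn1c was lower by -0.75 (SE 0.16, adjusted p = 0.00488). Of all genes called, 510 were higher and 32 lower, among the higher ones all 22 tested genes of the G2/M list (median difference 2.55, against 0.07 over all genes) and 18 of 24 of the S phase list (median 1.54). Of the partners of cyclins and kinases 6 of 8 rose, with Ccna2 at 3.2, Ccne2 at 1.57, Ccne1 at 1.54 and Cks1b at 1.38. From the list of other inhibitors, Cdkn3, a phosphatase of Cdk2, rose by 1.02. Ccnd2 and Ccnd3 were not among the genes called.

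Top2a-found cells also had more genes found in 5 of the 6 classes, for example 4326 against 3655.5 in neural tube progenitor-like cells and 4933.5 against 4425 in otic epithelium-like cells, and 4282 against 4757 in epibranchial neuron-like cells. The part of this difference in the results was not tested. In cells with at least 3500 genes, Cdkn1c differed by -0.68 (adjusted p = 0.068, range over 13 alternatives 0.00122 to 0.781), and when cells were split by the whole G2/M list by -0.23 (adjusted p = 0.596). Ccnd1 lost its call in 8 and Cdkn1b in 10 of 13 alternatives, with adjusted p up to 0.812 and 0.911.

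By class, Ccnd1 had 4.88 and 5.1 in Top2a-found differentiating neuron-like cells, against 2.49 and 1.73 in those without Top2a, a difference of 2.88 that did not pass (SE 0.77, adjusted p = 0.0963). It was found in 85.7% of the Top2a-found cells and in 47.6% of the others. In early neuroblast-like cells the values were 6.21 and 7.45 with Top2a, against 2.89 and 6.42 without (difference 2.18, adjusted p = 0.181). Surface ectoderm-like cells had the opposite sign in both replicates, at 1.5 and 2.15 with Top2a, against 2.26 and 2.77 without. For neural tube progenitor-like cells the replicates differed in sign, with 3.41 and 4.18, against 3.93 and 1.44. Otic epithelium-like cells had 4.84 and 5.32, against 4.65 and 3.98, and epibranchial neuron-like cells 3.23 and 2.08, against 1.5 and 1.43. Cdkn1c had 7.55 and 7.5 in Top2a-found otic epithelium-like cells, against 8.19 and 8.04 in Top2a-not-found ones. Cdkn1b was found in 26.3% of Top2a-found neural tube progenitor-like cells, against 4.5% of the others, and in 32.1% of Top2a-found differentiating neuron-like cells, against 14.3% of the others. No member was called within differentiating neuron-like, early neuroblast-like, epibranchial neuron-like, surface ectoderm-like or otic epithelium-like cells, where 1.05%, 1.26%, 0.412%, 0.491% and 0.0393% of all genes were.

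Neural tube progenitor-like cells gave 2 calls among the members, where 0.569% of all genes were called. Cdkn1c averaged 5.74 and 6.05 in Top2a-found cells, against 7.1 and 8.06 in Top2a-not-found cells (difference -1.68, SE 0.33, adjusted p = 0.0378). Gadd45g averaged 3.86 and 3.17 in Top2a-found cells, against 5.43 and 8.09 in Top2a-not-found cells (difference -3.25, SE 0.70, adjusted p = 0.0441), with median levels of 1.34 and 94.5 FPKM. The values did not overlap, but the cells without Top2a numbered 16 in replicate 1 and 6 in replicate 2, and the difference in Gadd45g was -1.57 and -4.92. The call on Gadd45g held in 4 of 11 alternatives (adjusted p 0.0141 to 0.515) and that on Cdkn1c in 6 of 11 (0.00315 to 0.56, and 0.209 without the replicate in the model).

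Over the 6 classes Gadd45g differed by 0.61 (adjusted p = 0.516), and in cells with at least 3500 genes it was called higher in Top2a-found cells by 1.63 (adjusted p = 0.000499, range over 13 alternatives 0.000499 to 0.995). Within the neuronal classes it had the opposite sign from neural tube progenitor-like cells without passing: 1.87 in differentiating neuron-like (adjusted p = 0.279), 1.78 in early neuroblast-like (adjusted p = 0.237) and 1.81 in epibranchial neuron-like cells (adjusted p = 0.263). The difference between neural tube progenitor-like and otic epithelium-like cells in the effect of Top2a was tested by an interaction term in limma, which called 0 genes (201 at an unadjusted p under 0.05) and gave -3.60 for Gadd45g (SE 0.99, p = 0.00187, adjusted p = 1).

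**Figure D5:**
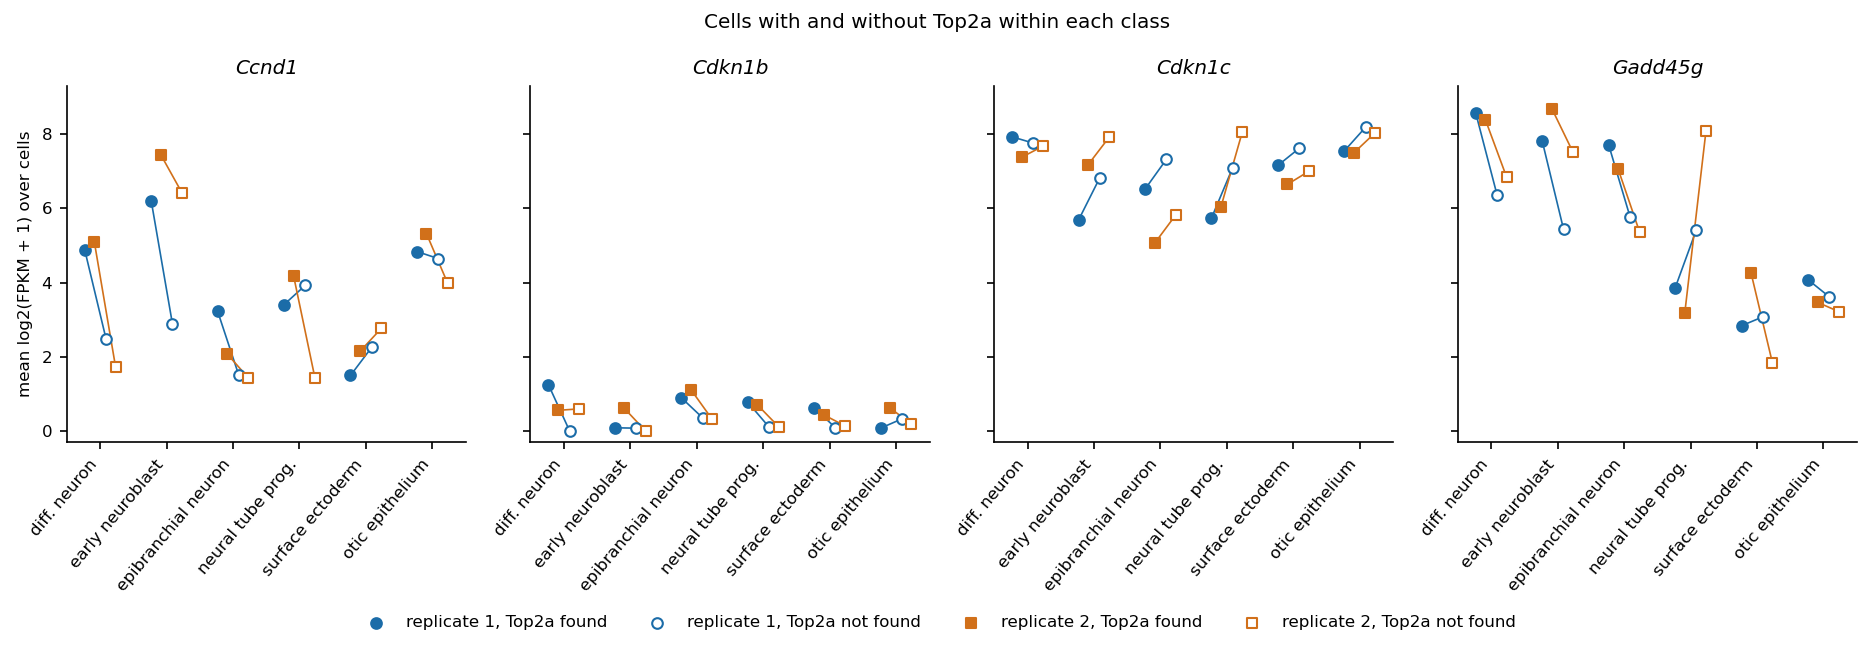
Mean log2(FPKM + 1) over cells (vertical axis) of Ccnd1, Cdkn1b, Cdkn1c and Gadd45g in Top2a-found (filled) and Top2a-not-found cells (open) of 6 classes, with 1 pair of points per replicate. In neural tube progenitor-like cells Cdkn1c is at 5.74 and 6.05 with Top2a, against 7.1 and 8.06 without it, and in differentiating neuron-like cells Ccnd1 is at 4.88 and 5.1, against 2.49 and 1.73.

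Correlations with Top2a were computed across classes and within them. The classes of a replicate share plates, and classes differ in the number of genes found per cell. Each class enters the 16 means once per replicate, so these are not 16 independent points. Over the 16 class-by-replicate means, Pearson's r with Top2a was 0.77 for Ccnd2, 0.78 for Ccnd3 and 0.46 for Ccnd1. It was -0.60 for Gadd45g, -0.54 for Gadd45a, -0.53 for Cdkn2d and -0.44 for Cdkn1c. Over the 146 otic epithelium-like cells it was -0.12 for Ccnd2, -0.05 for Ccnd3, 0.07 for Ccnd1 and -0.21 for Cdkn1c, while the number of genes found per cell gave 0.37. Over the 49 differentiating neuron-like cells Ccnd1 gave 0.46 and the number of genes found 0.39. Over the 121 neural tube progenitor-like cells Cdkn1c gave -0.30 and Gadd45g -0.25, with 0.49 for the number of genes found. These are descriptions, and cells of a plate may share transfer between wells.

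Transcripts of cyclins and inhibitors were found in the same cells. Ccnd1 and Gadd45g were found together in 33 of 49 differentiating neuron-like, 37 of 42 early neuroblast-like and 56 of 121 neural tube progenitor-like cells, against 80 of 146 otic epithelium-like cells. Ccnd1 and Cdkn1c were found together in 36 of 42 early neuroblast-like cells, against 126 of 146 otic epithelium-like cells. Taken singly, Ccnd1 was found in 88.1%, Gadd45g in 97.6% and Cdkn1c in 92.9% of early neuroblast-like cells. In otic epithelium-like cells these shares were 86.3%, 63.7% and 100%. Whether the pairs occurred together more often than the single shares give was not tested, and values may have been carried between wells. Among the members, the patterns over the 16 means most alike were those of Ccnd2 and Ccnd3 (Pearson's r 0.87) and of Cdkn2d and Gadd45a (0.76), and the most opposed were Ccnd2 and Gadd45g (-0.89), while Ccnd1 and Ccnd2 gave 0.08.

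Over all tested genes, the patterns most like that of Ccnd2 over the 16 means were Yap1 (r 0.954), Hes1 (0.948), a Notch target, and Gja1 (0.935), a gap junction protein. Those most like Gadd45a were Pcdh17 (0.962), Fam171b (0.956) and Rgs4 (0.947), and those most like Gadd45g were Btbd17 (0.924), Tmsb4x (0.887) and Stmn1 (0.883), Stmn1 being a microtubule regulator of dividing cells and neurons. Btg2 was nearest to Tmsb4x (0.847), Itpk1 (0.781) and Hes6 (0.781), Cdkn2d to Pdxp (0.903) and Gamt (0.898), Ccnd3 to Trim27 (0.941) and Rbbp7 (0.935), and Cdkn1a to Mrps28 (0.857) and Six4 (0.831). Ccnd1, which no other member followed closely, was nearest to the hair cell myosin gene Myo7a (0.849), Cdkn1c to Herc3 (0.801) and Cdkn1b to Pip5k1c (0.769). These orders are by Pearson's r, over means in which each class enters once per replicate, and the genes named are the highest of all tested. By Spearman's correlation Pcdh17, Fam171b and Rgs4 ranked 66, 23 and 188 for Gadd45a, Hes1 58 for Ccnd2 and Stmn1 55 for Gadd45g. Yap1, Myo7a and Herc3 ranked 1 by both.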

How the data were processed

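Single cells were sorted into plates, and cDNA was made with the SMARTer kit and libraries with Nextera XT, per the labels' protocols. The submitters' processing notes name TopHat, Bowtie, Bowtie2 and Cufflinks beside cutadapt, FastQC and SAMtools, and the build mm10, without roles or versions. The deposited values are read as log2(FPKM + 1): after back-transformation 99.75% were numbers of 6 significant digits (relative error 1e-07). Reads per cell, and so depth, are unknown, and 74.9% of values were listed at 0.

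Of 19659 rows, 19630 matched GENCODE M21 (GRCm38), and 19494 genes remained after 132 rows of 63 repeated identifiers and rows without a unique symbol were left out. Loci come from that annotation and promoters from RefSeq (GRCm38.p6).

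Classes came from 70 of 93 marker genes (13 lists; found in at least 1% of cells; 15 principal components, 15 neighbours, Leiden resolution 1.0; scanpy 1.11.5), which gave 12 clusters in 9 classes. Cells are not replicates, so means per class and replicate were fitted with limma 3.58.1 (R 4.3.3), with class and replicate as terms and a trend, over the 10189 genes found (FPKM 1 or more) in 5% of cells or more, markers left out (10188 in the fits on Top2a, which itself was left out). Top2a-found cells were compared with the rest over means per class, replicate and Top2a state. A gene was called at an adjusted p (Benjamini-Hochberg) below 0.05, two-sided. Of each list, called genes with the largest differences are named, up to 4 a comparison, and for each gene the 3 most alike.

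The genes, lists, comparisons and tests were chosen with earlier results of these data known. A planned comparison of hindbrain-type neurons was not run as written, because cluster 8 held more epibranchial than neural tube markers. It was run for cluster 8 under its number, chosen after seeing the data. A replicate holds cells of every class, which is why it stands in the model as a block. The alternatives were another resolution, pseudocount, scaling and gene filter, a minimum of 3500 genes per cell, cells without a source well, values corrected for transfer (10% and 30% of the source), the log2 of mean FPKM, weights by cell number, no block, other splits for Top2a, and classes without endothelial, erythroid or macrophage cells. The fits were tested on simulated data.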

Additional observations from a re-analysis of the deposited data

Results flagged for a closer look

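The change of Btg2 differed between the 2 progenitor-to-neuron steps. It was called higher by 2.29 in differentiating neuron-like than in otic epithelium-like cells. The difference of -1.34 between cluster 8 and neural tube progenitor-like cells did not pass, so a fall in that step is not shown. The interaction in limma was 3.63 on the log2(FPKM + 1) scale (adjusted p = 0.00386, 9 of 10 alternatives called, adjusted p 0.000314 to 0.123).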

How the results depend on the processing

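Of 130 values of the 10 genes, 42 were called, and all 42 had the same sign in both replicates. Over 480 alternative fits of these, 383 kept the direction and the call, 97 lost the call and 0 reversed. With 1 replicate left out no spread between replicates remains, so the differences per replicate are values with no test.

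The replicate as a block changed the counts of called genes little. Without the replicate block limma called 263 genes (272 with it) in early neuroblast-like against otic epithelium-like cells, 468 (494) between differentiating neuron-like and early neuroblast-like, and 1040 (1128) between cluster 8 and neural tube progenitor-like cells. It called 1124, 514, 1045, 2261, 334 and 505 genes in differentiating neuron-like, neural tube progenitor-like, epibranchial neuron-like, cluster 8, surface ectoderm-like and mesenchyme-like cells against otic epithelium-like cells (1204, 566, 1127, 2383, 344 and 534 with it), 308 (347) for the difference of the steps, 575 (542) for Top2a, 64 (58) for Top2a in neural tube progenitor-like cells and 0 (0) for the interaction. Cdkn1c in the Top2a comparison of those cells then had an adjusted p of 0.209, and beside the 4 losses given above it changed no other call.

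Counts moved by over 1.5 times under other settings. In the cells without a source well they were 90 (early neuroblast-like against otic epithelium-like), 46 (differentiating against early neuroblast-like), and 310, 130, 392 and 121 (differentiating, neural tube, epibranchial and surface ectoderm against otic epithelium-like), and 0 for Top2a, where only otic epithelium-like cells were left. Weighted by cells they were 562, 2190, 2107, 1705 and 691 against otic epithelium-like cells (early neuroblast, differentiating, neural tube, epibranchial, surface ectoderm), 684 for the steps, 212 for Top2a in neural tube progenitor-like cells and 1 for the interaction. With the log2 of mean FPKM they were 149 (early neuroblast) and 147 (surface ectoderm) against otic epithelium-like cells, 309 for Top2a and 0 for Top2a in neural tube progenitor-like cells. There the share of called genes that were higher was 53.7% (28.3% in the main result) in early neuroblast, 36.1% (51.7%) in surface ectoderm and 16.0% (42.5%) in mesenchyme against otic epithelium-like cells, 47.1% (64.4%) in differentiating against early neuroblast-like cells and 32.5% (43.4%) in cluster 8 against neural tube progenitor-like cells. For Top2a, 334 were called at 3500 genes or more and 359 without endothelial, erythroid and macrophage cells, and in neural tube progenitor-like cells 2 with the 30% correction, 0 with no gene filter and 104 with upper-quartile scaling. The cause of these moves was not tested. Too few cells without a source well were left for cluster 8, mesenchyme-like cells and the steps, and resolution 0.6 gave no cluster 8 or epibranchial class. Depth in reads is unknown, which limits what can be said of seldom found genes such as Cdkn1b.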
